A study of Mus musculus with 4 samples.

Results

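The 10 MHC class I genes described here were taken by symbol from the 55536 annotated genes of the GENCODE M21 gene table: the heavy chain genes H2-K1, H2-D1, H2-Q4, H2-Q6, H2-Q7, H2-T22, H2-T23 and H2-M3, the light chain gene B2m, and Nlrc5. All 10 passed the minimum mean count of 10 used for tests. PolyA RNA-seq was done on 4 libraries, all of them technical replicates of 1 biosample: regulatory T cells (Treg) from a male adult Foxp3CreERT2 x Rosa26YFP mouse aged 6 months, named inflammation-experienced by the labels. In this cross a tamoxifen-inducible Cre recombinase is made where Foxp3 is expressed, and the Rosa26 locus carries a yellow fluorescent protein reporter. The labels trace the cells to a bone marrow hematopoietic origin, and how the inflammation was induced and the cells were sorted is not given in the sources used here. There was no second condition and no second animal, so every SD and p-value below measures the spread between technical libraries and not between mice.

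Class I molecules are heterodimers of a membrane-bound heavy chain and beta-2-microglobulin, and nearly all nucleated cells display them. The classical heavy chains present peptides from cytosolic proteins to CD8 T cells, while the non-classical ones serve as ligands of natural killer cells and of unconventional T cells. Interferons raise the whole set, and the transactivator NLRC5 acts on the conserved promoter elements of the heavy chain and B2m genes. In T cells, surface class I also engages inhibitory receptors of natural killer cells.

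The heavy chain genes are paralogues, and the sequences below show where the reference copies differ and where they do not. The H2 haplotype of this mouse is not given in the sources used here, so the sequences, the shared windows and the quantification describe the reference alleles, which its own alleles may not match. Coding exon 2 encodes the first extracellular domain, part of the peptide groove. Its first 90 bases are shown 5′ to 3′ for the classical pair and for the H2-Q6 and H2-Q7 pair (GENCODE M21 transcripts, GRCm38), with capitals at the positions that differ from H2-K1.
H2-K1 (chr17:33999914-34000003, - strand): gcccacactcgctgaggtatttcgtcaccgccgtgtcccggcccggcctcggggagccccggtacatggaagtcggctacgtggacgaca
H2-D1 (chr17:35263379-35263468, + strand): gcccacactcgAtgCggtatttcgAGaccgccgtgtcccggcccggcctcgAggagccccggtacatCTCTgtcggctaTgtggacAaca
H2-Q6 (chr17:35425108-35425197, + strand): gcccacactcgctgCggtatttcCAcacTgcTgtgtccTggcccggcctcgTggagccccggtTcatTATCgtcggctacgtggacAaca
H2-Q7 (chr17:35439452-35439541, + strand): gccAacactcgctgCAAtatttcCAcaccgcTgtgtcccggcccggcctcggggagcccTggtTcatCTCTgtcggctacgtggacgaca
H2-D1 differed from H2-K1 at 11 of these 90 bases, and H2-Q6 and H2-Q7 each at 13.

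Coding exon 4 encodes the third extracellular domain, which lies next to the membrane and holds the contact with CD8. Its first 90 bases are shown in the same way for 5 heavy chains.
H2-K1 (chr17:33997471-33997560, - strand): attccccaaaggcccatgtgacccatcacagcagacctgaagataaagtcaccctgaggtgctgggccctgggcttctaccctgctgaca
H2-D1 (chr17:35265784-35265873, + strand): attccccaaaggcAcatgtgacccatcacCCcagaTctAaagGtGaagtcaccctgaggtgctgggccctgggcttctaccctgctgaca
H2-Q6 (chr17:35427864-35427953, + strand): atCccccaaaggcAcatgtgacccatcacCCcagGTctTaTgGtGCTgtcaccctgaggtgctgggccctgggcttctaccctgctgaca
H2-Q7 (chr17:35442267-35442356, + strand): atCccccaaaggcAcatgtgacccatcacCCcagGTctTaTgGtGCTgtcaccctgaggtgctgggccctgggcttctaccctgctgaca
H2-M3 (chr17:37272269-37272358, + strand): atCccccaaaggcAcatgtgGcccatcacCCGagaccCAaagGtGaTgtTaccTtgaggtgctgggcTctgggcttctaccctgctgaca
H2-Q6 and H2-Q7 were identical over this stretch, and each differed from H2-K1 at 12 bases. H2-D1 differed from H2-K1 at 7 bases and H2-M3 at 14. Over whole exons and all 28 pairs of heavy chain members, identity (identical bases as a share of aligned columns, gaps included) had a median of 69.8% in coding exon 2 and 93.5% in coding exon 4. Gaps lower the exon 2 value, since the annotated coding exon 2 of H2-Q4 has 354 bases against 270 in H2-K1. H2-K1 and H2-Q4 had 247 identical, 23 mismatched and 84 gap columns there, an identity of 69.8%. Identity over the whole coding sequence was 93.1% between H2-Q6 and H2-Q7 and 88.3% between H2-K1 and H2-D1.

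RefSeq promoter sequences, from 250 bases before to 50 after each start, were matched for 9 of the 10 genes, all but Nlrc5. Stretches of 5 of them that overlap no annotated exon are shown because they hold the element types described for class I promoters (RefSeq, GRCm38.p6). Capitals mark matches, on either strand, to a kappa B type element (GGGGA, any 1 base, then TCCCC), to TTTCACTT and to GAAA repeated after any 2 bases (interferon-response types, which overlap in H2-T22), and to TGATGAC (X box type) and ATTGG (Y box type).
B2m (chr2:122147543-122147643, + strand): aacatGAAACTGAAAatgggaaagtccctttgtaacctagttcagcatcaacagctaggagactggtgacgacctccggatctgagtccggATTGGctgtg
H2-K1 (chr17:34000354-34000463, - strand): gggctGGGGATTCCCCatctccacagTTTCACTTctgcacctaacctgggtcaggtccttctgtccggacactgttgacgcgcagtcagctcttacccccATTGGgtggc
H2-Q6 (chr17:35424672-35424804, + strand): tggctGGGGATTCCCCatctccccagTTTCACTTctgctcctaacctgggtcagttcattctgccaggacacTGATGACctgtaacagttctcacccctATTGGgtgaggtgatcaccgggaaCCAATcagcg
H2-Q7 (chr17:35439037-35439148, + strand): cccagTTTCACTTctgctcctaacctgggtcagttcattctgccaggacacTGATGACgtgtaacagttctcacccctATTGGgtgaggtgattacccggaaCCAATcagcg
H2-T22 (chr17:36042796-36042938, - strand): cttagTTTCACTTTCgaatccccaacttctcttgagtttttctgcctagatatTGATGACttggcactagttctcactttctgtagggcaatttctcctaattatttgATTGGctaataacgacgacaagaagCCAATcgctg
The motif letters were chosen after these sequences had been read, so the counts are a description only. TTTCACTT was found in 7 of the 9 promoters, against 1.67% of 27025 RefSeq promoters. The kappa B type element was found in 3, those of H2-K1, H2-D1 and H2-Q6, against 0.0444% of all. TGATGAC was found in 6 against 3.36%, the GAAA repeat in 3 against 3.49%, and ATTGG in all 9 against 37.9%.

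The libraries held 6648385 to 9341328 expected counts in annotated genes, with library 4 the shallowest. The Treg label was checked on 6 markers, all above 20 TPM in every library: Foxp3 had 20.3, 21.7, 32.8 and 36.4 TPM in libraries 1 to 4. RNA of other cell types was also present, and it differed between libraries. The 8 B and plasma cell markers summed to 2599 TPM in library 1, 1950 in library 2, 1939 in library 3 and 1656 in library 4, mostly from Ighm and Cd74. The 4 erythroid markers summed to 965 TPM in library 1 and to between 3.55 and 36.3 TPM in the others. The sums were 120 to 203 TPM for 5 CD8 and cytotoxic markers, of which Nkg7 gave the most and Ncr1 was listed at 0 in libraries 2 and 4. They were 8.03 to 31.5 TPM for 6 monocyte, macrophage and dendritic cell markers, 0.11 to 8.91 TPM for 4 granulocyte markers and 0.07 to 0.53 TPM for 4 stromal and endothelial markers, with Cdh5 listed at 0 throughout. Fewer cells of a type and less RNA per cell cannot be told apart in such bulk values, and the part of these cells in the class I levels was not tested.

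All 10 genes were detected in every library, with B2m at the top and H2-Q4 at the bottom by TPM. Levels are given in TPM (transcript abundance scaled to a fixed total per library, corrected for transcript length). The order of mean TPM was B2m, H2-K1, H2-D1, H2-T23, H2-Q7, H2-Q6, H2-T22, Nlrc5, H2-M3 and H2-Q4. B2m ranked 7th among nuclear protein-coding genes by mean TPM, H2-K1 12th and H2-D1 19th, while H2-Q4 ranked 5894th. Together the 10 genes took 1.99% ± 0.06 of all TPM (SD, n = 4). A neighbouring pair was called apart beyond its spread where the log2 ratio had 1 sign in all 4 libraries and its mean exceeded 2 SD. By that rule 4 of the 9 neighbouring pairs were apart: H2-D1 over H2-T23, H2-Q7 over H2-Q6, H2-T22 over Nlrc5, and H2-M3 over H2-Q4. The other 5 pairs did not differ beyond the library spread: B2m and H2-K1, H2-K1 and H2-D1, H2-T23 and H2-Q7, H2-Q6 and H2-T22, and Nlrc5 and H2-M3. Some of these depended on the quantity: with M4 counts divided by length, H2-Q6 over H2-T22 was -0.60 ± 0.22 in place of 0.37 ± 0.24, and H2-T23 over H2-Q7 was 1.73 ± 0.12 in place of 0.18 ± 0.14 (SD, n = 4). Over protein-coding transcripts only, B2m over H2-K1 was 1.46 ± 0.26 in place of 0.36 ± 0.22, and H2-T23 over H2-Q7 was 0.68 ± 0.09. Over the 10 pairs compared, these 9 and B2m over the summed heavy chains, the two-sided exact sign-flip permutation test cannot give a p below 0.125 with 4 libraries, so none could pass it.

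**Figure D1:**
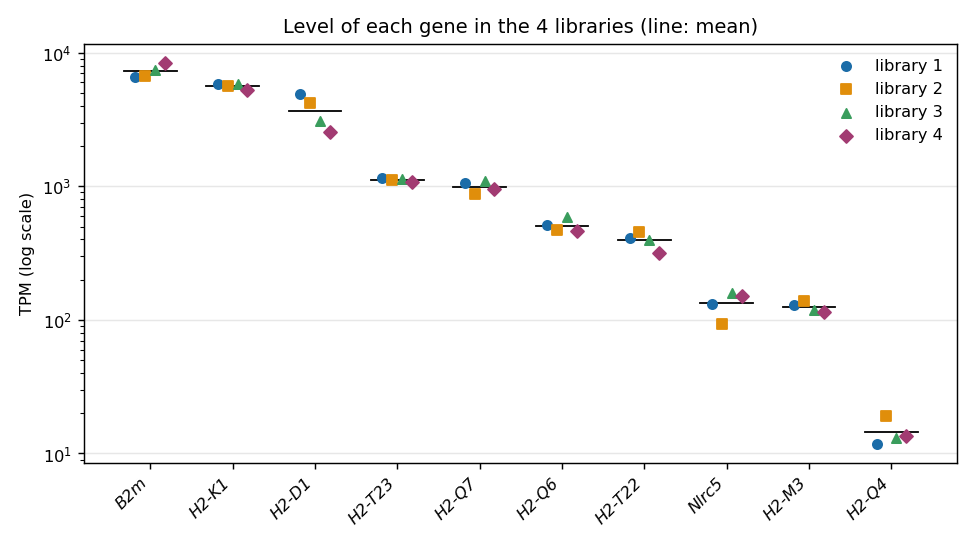
TPM of each of the 10 genes (log axis) in the 4 technical libraries (points), with their mean (line). H2-D1 spread most among the abundant genes, between 2543 and 4914 TPM, while H2-T23 stayed between 1072 and 1150 TPM.

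B2m, the shared light chain, lies at chr2:122147686-122153083 on the + strand (coordinates of genes are those of GENCODE M21). It had 6551, 6746, 7478 and 8379 TPM in libraries 1 to 4, or 7288 ± 829 TPM (SD, n = 4). Library 4 held the highest B2m level and the lowest sum of the 8 heavy chains: the sums were 14045, 12912, 12279 and 10728 TPM in libraries 1 to 4. The log2 ratio of B2m over the summed heavy chains averaged -0.78 ± 0.32 (SD, n = 4). It was -1.10 in library 1, -0.94 in library 2, -0.72 in library 3 and -0.36 in library 4, so the light chain was below the heavy chain sum in all 4 libraries. When only transcripts annotated as protein-coding were summed, B2m was the higher in library 4. The mean ratio was then -0.27 ± 0.38 and was not apart beyond its spread. Nor was it in the table made from the reads, at -0.52 ± 0.28, or without library 2, at -0.72 ± 0.37.

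H2-K1 and H2-D1, the classical heavy chains, gave most of the heavy chain RNA, with 9337 ± 1265 of 12491 ± 1384 TPM (SD, n = 4). H2-K1 (chr17:33996017-34000347, - strand) had 5850, 5666, 5843 and 5260 TPM in libraries 1 to 4. H2-D1 (chr17:35262730-35267499, + strand) had 4914, 4174, 3099 and 2543 TPM. H2-K1 was nearly level over the libraries, while H2-D1 was highest in library 1 and lowest in library 4, with a 1.93-fold range.

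Which of the classical genes was higher depended on the quantity used. In TPM, H2-K1 exceeded H2-D1 in all 4 libraries, with a log2 ratio of 0.66 ± 0.38 (SD, n = 4). In expected counts, H2-K1 had 39394, 41091, 40679 and 26694 reads in libraries 1 to 4, and H2-D1 had 62108, 58630, 41696 and 24134. H2-D1 therefore had more reads in libraries 1, 2 and 3 and fewer in library 4, and the log2 ratio in counts scaled to library totals (CPM) was -0.26 ± 0.38. The mean effective length, by which the gene table divides, was 931 bases for H2-K1 and 1772 bases for H2-D1. H2-K1 is annotated with 16 transcripts, and its 7 retained-intron transcripts took 53.3% ± 2.2 of its TPM and 35.4% ± 2.7 of its expected counts (SD, n = 4). The short retained-intron transcript H2-K1-215, of 457 bases, took 26.1% ± 0.6 of the gene's TPM, about as much as the coding transcript H2-K1-201 of 1619 bases with 26.6% ± 2.6. H2-D1 was almost all coding, and H2-D1-202 alone took 90.4% ± 1.1 of its TPM. Over protein-coding transcripts only, H2-K1 had 2915, 2583, 2626 and 2438 TPM in libraries 1 to 4, against 4859, 4122, 3044 and 2491 TPM of H2-D1. On that measure, chosen after seeing the data, H2-D1 was the higher in all 4 libraries and the log2 ratio of H2-K1 over H2-D1 was -0.41 ± 0.35, within 2 SD of 0.

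**Figure D2:**
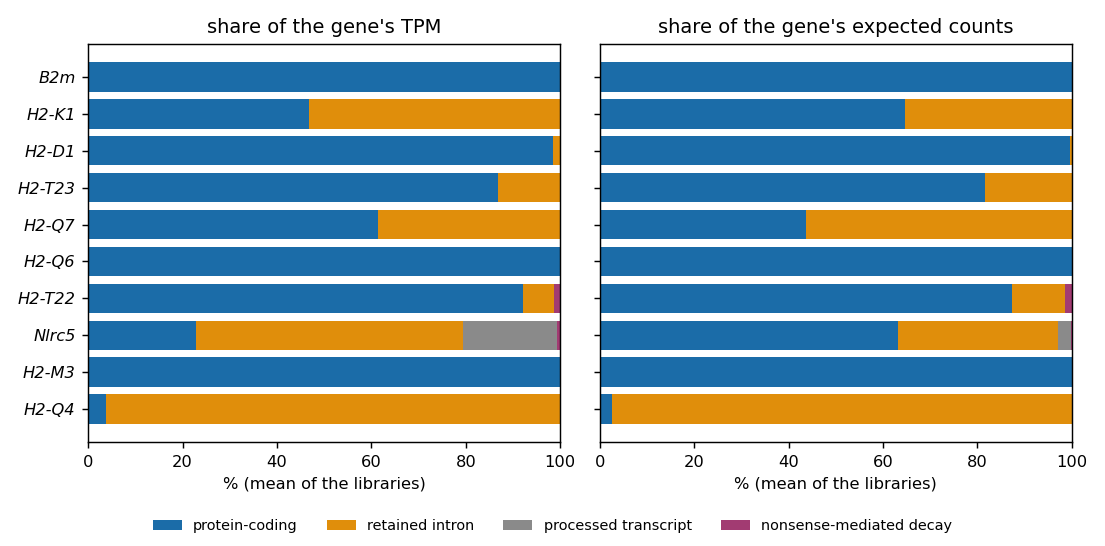
Share of each gene's TPM (left) and of its expected counts (right) by annotated transcript type, as the mean of 4 libraries. Retained-intron transcripts made up 53.3% of H2-K1 TPM, 38.7% of H2-Q7 TPM, 56.6% of Nlrc5 TPM and 96.1% of H2-Q4 TPM. H2-Q6, B2m and H2-M3 have no annotated retained-intron transcript, so their share could not be other than absent.

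H2-Q6 and H2-Q7 are non-classical genes that encode Qa-2 antigens. H2-Q7 (chr17:35439155-35443773, + strand) had 1061, 871, 1091 and 948 TPM in libraries 1 to 4. H2-Q6 (chr17:35424850-35430055, + strand) had 517, 468, 585 and 461 TPM. H2-Q7 was the higher in every library, by a log2 ratio of 0.97 ± 0.08 (SD, n = 4), the narrowest of the 10 ratios. Retained-intron transcripts took 38.7% ± 2.3 of H2-Q7 TPM, and over protein-coding transcripts only the ratio was 0.26 ± 0.09. All annotated transcripts of H2-Q6 are protein-coding, so that restriction can lower H2-Q7 but not H2-Q6. By TPM the coding H2-Q7-201 led with 37.3% ± 1.4 of the gene, whereas by expected counts the retained-intron H2-Q7-206, of 4209 bases, led with 43.2% ± 2.8. H2-Q6 was carried by H2-Q6-202 alone.

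H2-Q4 (chr17:35379617-35385290, + strand), which encodes another non-classical heavy chain, was the lowest of the 10. It had 11.8, 19.2, 13.1 and 13.5 TPM in libraries 1 to 4, highest in library 2. Of this, 96.1% ± 3.6 belonged to the retained-intron transcript H2-Q4-202 (SD, n = 4). The coding transcript H2-Q4-201 received 9.21, 3.76, 11.6 and 0 expected counts in libraries 1 to 4, so coding H2-Q4 RNA was near the limit of detection at this depth. The M21 gene Gm11131 lies on the opposite strand over the H2-Q4 start, and whether counting used strand is not given in the sources used here, so reads of this overlap cannot be told apart.

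H2-T23 encodes Qa-1, which presents leader peptides of other class I chains to the Klrd1 and Klrc1 receptor of natural killer cells. It lies at chr17:36029773-36032855 on the - strand and had 1150, 1124, 1130 and 1072 TPM in libraries 1 to 4. This was the steadiest of the 10, with a coefficient of variation of 2.98% against 28.9% for H2-D1. The coding H2-T23-201 took 86.9% ± 1.5 of its TPM (SD, n = 4). H2-T22 (chr17:36037128-36042747, - strand), a heavy chain bound by some gamma-delta T cell receptors, had 413, 452, 399 and 317 TPM in libraries 1 to 4, lowest in library 4. Its reads were divided between H2-T22-202, with 54.2% ± 2.8 of TPM, and H2-T22-203, with 36.3% ± 1.5.

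H2-M3 (chr17:37270220-37274484, + strand), which presents N-formylated bacterial and mitochondrial peptides, had 129, 137, 118 and 114 TPM in libraries 1 to 4. It has 1 annotated transcript and stayed within a 1.20-fold range. Nlrc5 (chr8:94434356-94527272, + strand), the class I transactivator, had 130, 93.8, 158 and 152 TPM, lowest in library 2. The Nlrc5 over H2-M3 ratio changed sign, being negative in library 2 and positive in libraries 1, 3 and 4. Of Nlrc5 TPM, 55.1% ± 5.7 belonged to the retained-intron transcript Nlrc5-203, of 1727 bases (SD, n = 4). By expected counts the coding Nlrc5-207, of 7578 bases, led with 59.6% ± 5.0. Over protein-coding transcripts only, Nlrc5 had 30.4 ± 7.2 TPM and H2-M3 125 ± 10.5 TPM, a log2 ratio of -2.07 ± 0.49, negative in all 4 libraries.

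All 10 genes differed between the 4 technical libraries by more than counting error. A Poisson likelihood ratio test over all genes, with Benjamini-Hochberg adjustment, called 10 of 10 members at 0.05, and it called 68.4% of the 13045 genes tested. Abundance matters for this count: among the 1724 genes that averaged 1000 counts or more, 95.8% were called. The highest adjusted p among the 10 was 4.00e-13, for H2-M3. Without library 2, 54.8% of genes and 7 members were called, and H2-Q4 (adjusted p = 0.33), H2-M3 (0.071) and Nlrc5 (0.064) were not.

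The size of these differences was modest except in 3 genes. The highest normalised count exceeded the lowest by 1.96-fold for H2-D1, 1.88-fold for H2-Q4 and 1.59-fold for H2-T22. These 3 of 10 members passed 1.5-fold, against 49.6% of genes tested and 24.2% of those averaging 1000 counts or more. The other 7 spanned 1.17-fold (H2-T23) to 1.45-fold (Nlrc5). H2-D1 also lay above the median of abundant genes by edgeR's tagwise coefficient of variation, a measure of spread beyond counting. It was 21.6% for H2-D1 and 13.7% for H2-K1, against a median of 14.8% for genes of at least 1000 counts. H2-D1 had 59265, 57012, 36992 and 30301 normalised counts in libraries 1 to 4, high in libraries 1 and 2 and low in libraries 3 and 4. H2-K1 had 37591, 39957, 36089 and 33516, which does not show that split. The span of H2-D1 was 2.02-fold in est_counts and 1.65-fold in M4 counts, and 1.59-fold without library 4. The B and plasma cell marker sum, 2599, 1950, 1939 and 1656 TPM, was likewise highest in library 1 and lowest in library 4. Its part in the H2-D1 values was not tested.

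**Figure D3:**
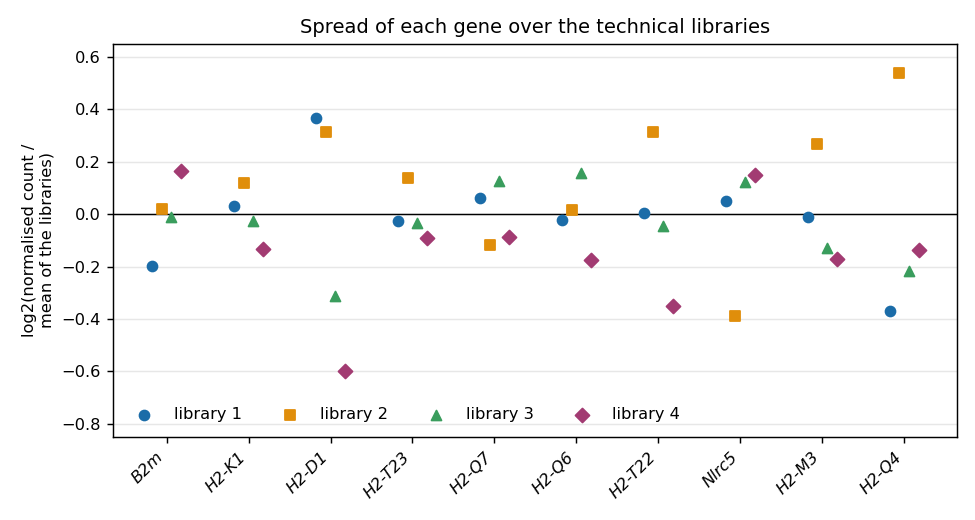
Normalised count of each gene in each of 4 libraries, as log2 of its ratio to the mean of the libraries (linear axis of log2 values). H2-D1 was high in libraries 1 and 2 and low in 3 and 4, a 1.96-fold range, whereas H2-K1 stayed within 1.19-fold.

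The share of a transcript that could give a read to another gene was measured on the annotation. For each member's leading transcript, all windows of 50 bases were looked up, on both strands, in the transcripts of all other M21 genes. Every window of B2m and of Nlrc5-203 was found in no other gene, and so were 99.4% of those of H2-M3. The shares were 91.2% for H2-K1, 85.7% for H2-D1, 70.2% for H2-T23, 65.0% for H2-Q6, 63.1% for H2-Q4, 59.8% for H2-Q7 and 53.6% for H2-T22. Not all sharing was between paralogues. The shared windows of H2-D1 were found in 168 other genes, those of H2-T23 in 172 and those of H2-Q4 in 145, against 25 for H2-K1. With windows of 31 bases, H2-D1 shared 2.70% with Kcnk4 and 2.61% with Cflar, which are not class I genes. The largest single overlap was that of H2-T22 with H2-T10, which held 39.3% of its windows. H2-Q7 shared 20.1% of its windows with H2-Q5 and 19.6% with H2-Q6. H2-Q6 shared 13.9% with H2-Q7 and 12.3% with H2-Q4, and H2-Q4 shared 15.6% with the opposite-strand gene Gm11131. H2-T23 shared 12.9% with the pseudogene H2-T-ps, and H2-K1 shared 6.94% with H2-D1. With windows of 100 bases, H2-K1 and H2-M3 shared none, and H2-Q7 had the lowest share found in no other gene, 78.1%.

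**Figure D4:**
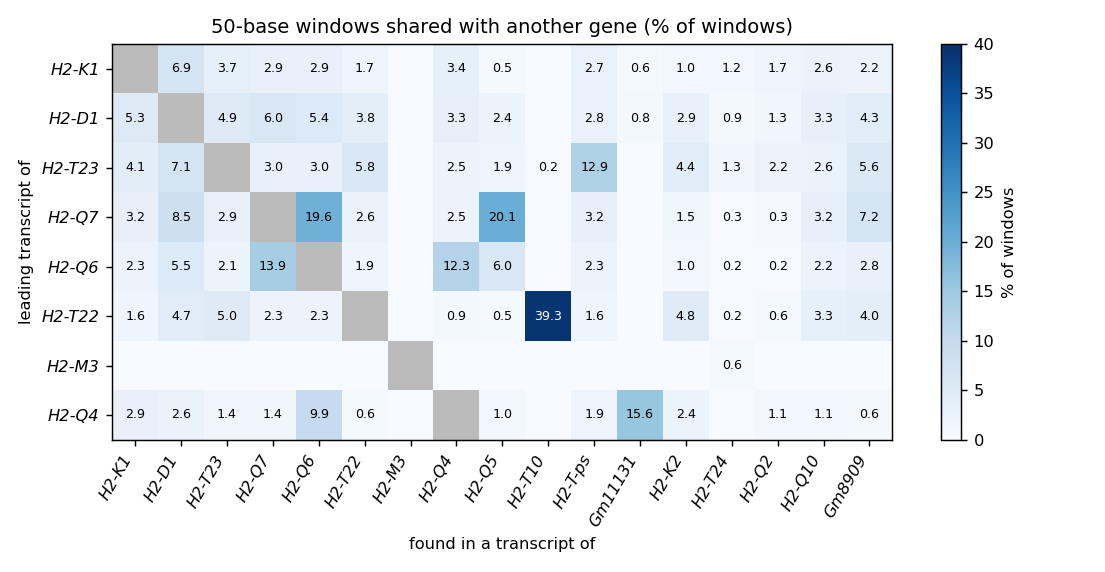
Percent of the 50-base windows of each heavy chain's leading transcript (rows) that occur in a transcript of another gene (columns), with blank cells below 0.05 and grey cells for the gene itself. The strongest overlaps were H2-T22 with H2-T10 (39.3%), H2-Q7 with H2-Q5 (20.1%) and H2-Q7 with H2-Q6 (19.6%).

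The 3 quantifications of the same libraries were set side by side for the members: whole-number counts on the older GENCODE M4 annotation, est_counts of the transcript table made from the reads, and expected counts on M21. Over the 10910 genes matched, the median log2 ratio of M4 CPM over M21 CPM was 0.18. Members with paralogues lay on both sides of it. H2-Q7 had 6200, 5825, 6702 and 4239 reads in the M4 counts of libraries 1 to 4, against 12705, 11012, 14289 and 8714 expected counts in M21. H2-Q6 had 4026, 3880, 4403 and 2721 reads in M4, against 7005, 7055, 8537 and 4787 in M21. The mean log2 ratios were -1.03 ± 0.05 for H2-Q7 and -0.87 ± 0.06 for H2-Q6 (SD, n = 4), so both genes were lower in M4 in every library.

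H2-Q4 was also lower in M4, with a log2 ratio of -0.60 ± 0.31 that rested on library 2; without that library it was -0.46, short of 1.5-fold. Thus 3 of the 10 members were more than 1.5-fold lower in M4, against 21.8% of genes, and 2 without library 2. H2-M3, with a log2 ratio of 0.81 ± 0.02, was the 1 member more than 1.5-fold higher in M4, against 26.2% of genes. These shares are near the background. H2-T23 and Nlrc5 had ratios of 0.51 ± 0.05 and 0.48 ± 0.01, and H2-K1 and H2-D1 lay at 0.18 ± 0.04 and 0.19 ± 0.10, next to the median of all genes. B2m, with no shared window, had a ratio of -0.22 ± 0.03. H2-Q5, the paralogue that shares windows with H2-Q7, was higher in M4 by 0.97 on the log2 scale, while H2-T24 was at -0.73 and H2-Q10 at -3.70. H2-Q5 had only 491, 537, 587 and 354 expected counts in M21 in libraries 1 to 4, far fewer than H2-Q7. Whether reads passed between these 2 genes was not tested.

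**Figure D5:**
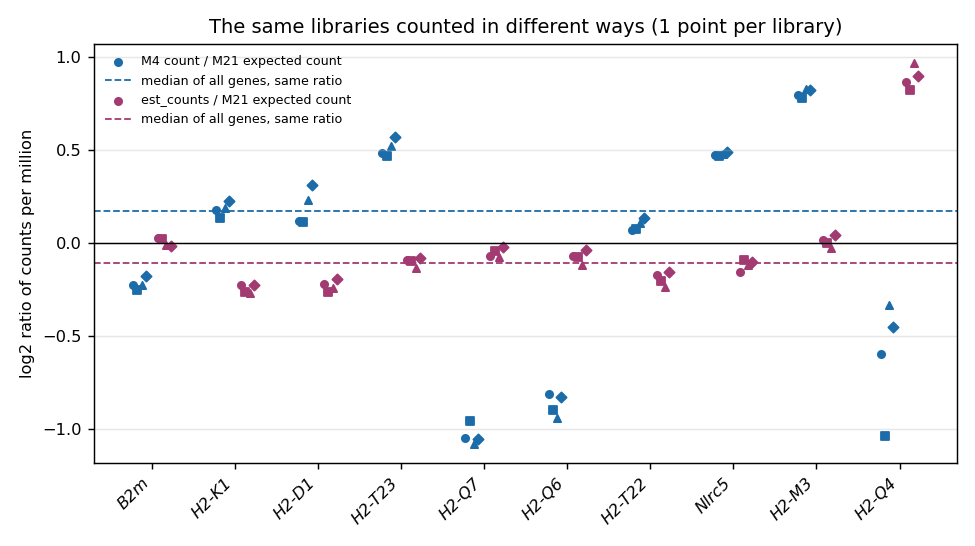
Log2 ratio of CPM between quantifications of the same library, 1 point per library, for M4 counts over M21 expected counts and for est_counts over M21 expected counts, with the median of all genes for each (dashed). H2-Q7 and H2-Q6 lay near -1.03 and -0.87 in M4 over M21 but near the median in est_counts over M21, where H2-Q4 stood apart at 0.89.

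For est_counts over M21 expected counts the median log2 ratio of all genes was -0.11, and 9 members lay between -0.25 and 0.01. H2-Q4 was the exception at 0.89 ± 0.06, past 1.5-fold upward, as 3.22% of genes were. The gene table also gives a posterior SD of each count, the uncertainty of read assignment as its own model states it. It was 0 for B2m, H2-M3 and Nlrc5 in all 4 libraries, and above 0 for the other 7 members, against 39.3% of the genes of mean count at least 10. It was largest for H2-Q4, at 1.24% of the count, and lay between 0.041% (H2-K1) and 0.270% (H2-T22) for the other 6. The stated uncertainty of H2-Q6 (0.249%) and H2-Q7 (0.167%) was therefore far smaller than the difference between the M4 and M21 counts of the same genes.

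Of 27 other class I symbols of the M21 annotation, 8 reached a mean of 1 TPM. H2-Q5, annotated as a polymorphic pseudogene, had 167, 104, 223 and 110 TPM in libraries 1 to 4. H2-T10, H2-K2 and H2-T-ps, also annotated as pseudogenes, had means of 60.4, 44.3 and 39.7 TPM. H2-T24 had 30.3 TPM, H2-Q2 13.7 TPM, H2-Q10 9.53 TPM and Gm8909 1.24 TPM. The 8 heavy chain members held 97.3% of the summed mean TPM of all these class I genes. The symbols H2-Q8, H2-Q9 and H2-T9 were looked up too but not matched in the M21 annotation, so no level is given for them. Whether reads of such genes were counted under other class I genes was not tested.

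All 8 peptide-loading genes and all 5 immunoproteasome genes had at least 1 TPM in every library. Among the loading genes, Pdia3, a disulfide isomerase of the loading complex, averaged 416 ± 76.4 TPM, Tapbp (tapasin) 309 ± 81.8 TPM, Calr (calreticulin) 200 ± 14.5 TPM and Tap1, a peptide transporter subunit, 154 ± 21.9 TPM (SD, n = 4). The lowest were Tapbpl at 81.0 ± 18.4 TPM and the peptide-trimming enzyme Erap1 at 53.0 ± 8.9 TPM. Tap2, the partner of Tap1, varied most, with 178, 100, 77.8 and 92.9 TPM in libraries 1 to 4 and a 2.37-fold span of normalised counts. Tap2 and Tapbp (430, 277, 278 and 249 TPM) were both highest in library 1, the library with the most erythroid and B cell marker RNA, whose part in this was not tested. The chaperone Canx was the only loading gene more than 1.5-fold lower in M4 than in M21, at -1.15 on the log2 scale, and Pdia3 (0.77) and Tapbpl (0.63) were more than 1.5-fold higher. Of all genes matched, 21.8% were lower and 26.2% higher by more than 1.5-fold. The between-library test called 8 of 8 loading genes, against 68.4% of all genes tested and 95.8% of those averaging 1000 counts or more, as these 8 did.

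The immunoproteasome subunits spanned 1.13-fold to 1.28-fold between libraries. Psmb8 averaged 770 ± 42.1 TPM, the proteasome activator subunits Psme2 and Psme1 642 ± 75 and 578 ± 41.8 TPM, Psmb10 302 ± 12.3 TPM and Psmb9 264 ± 20 TPM (SD, n = 4). The test called 5 of 5, against 68.4% of all genes tested and 95.8% of those averaging 1000 counts or more, as these 5 did. The widest span was 1.28-fold, for Psmb9. Psme2 was 1.05 higher on the log2 scale in M4 than in M21, Psmb10 0.96, Psmb8 0.82 and Psme1 0.81, all past 1.5-fold. Psmb9, at 0.56, was short of it. Of all genes matched, 26.2% were more than 1.5-fold higher in M4, and the median log2 ratio was 0.18.

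Of 8 transcriptional regulators, 7 had at least 1 TPM in every library, and the between-library test called 7 of 8, all except Rfxap (adjusted p = 0.99), against 68.4% of all genes tested. The interferon-regulatory factors Irf1 and Irf2 averaged 282 ± 17.6 and 182 ± 11.6 TPM (SD, n = 4). The NF-kappa B subunits Rela and Nfkb1 had 110 ± 14.0 and 74.5 ± 16.1 TPM. The lowest were Ciita, the class II counterpart of Nlrc5, with 3.60 ± 1.95 TPM, and Rfxap, a subunit of the complex that binds the X box, with 3.16 ± 1.11 TPM. Ciita had 5.35, 3.25, 0.99 and 4.81 TPM in libraries 1 to 4, the widest span of the list at 4.31-fold. Nlrc5, at 133 ± 28.9 TPM, was the higher of the pair in every library.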

How the data were processed

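PolyA RNA-seq of 4 technical libraries of 1 mouse biosample was analysed as 1 group, numbered by the labels' technical replicate number. For each library, the authors deposited expected counts and TPM per gene and transcript on GENCODE M21. They also deposited est_counts (estimated counts) and TPM per transcript from the reads, and counts of whole reads for each GENCODE M4 gene. The percent of a gene's TPM per transcript was deposited by the authors too. The assembly is mm10 (GRCm38) per the labels. For aligners, quantifiers and strand settings the entry is: not given in the sources used here. Depth in annotated genes was 9284432, 9341328, 9325636 and 6648385 expected counts in libraries 1 to 4, which sets the precision of low genes. The members, lists and motifs were chosen with earlier results of these data known. Named genes were all 10 members, other class I genes with a mean of at least 1 TPM, and of the pathway lists the 4 highest and 2 lowest by TPM, those past 1.5-fold between tables and the widest span. A regulator of the fixed list is not reported here.

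Expected counts were rounded for the Poisson likelihood ratio test (Python with scipy). It used TMM-scaled library sizes from edgeR 4.0.16 in R 4.3.3, a minimum mean count of 10 per gene and Benjamini-Hochberg adjustment at 0.05. The test was checked on counts simulated with counting error only. That check cannot show how the test behaves on these libraries, which had further spread. DESeq2 1.42.0 size factors were an alternative. Ratios used log2(TPM + 0.1), and comparisons of tables log2(CPM + 1). A fold change on such a scale understates that of low genes. M4 counts were matched to M21 by gene ID, with 22195 of 22457 matched. TPM in the table made from the reads was lower than in the gene table for every member but H2-Q4, so a scaling on nuclear protein-coding genes and a sum over protein-coding transcripts were added after seeing the data.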

Additional observations from a re-analysis of the deposited data

How the results depend on the processing

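The summed level of the 9 members other than Nlrc5, 19780 TPM, was 10005 in the table made from the reads, 16580 in that table scaled on coding genes, 17242 from M4 counts divided by length and 16136 over protein-coding transcripts. The 8 heavy chains, at 12491 TPM, gave 5880, 9766 and 8848 TPM in the first, second and last of these. H2-K1 over H2-D1 turned to -0.26 in CPM and -0.41 over protein-coding transcripts. H2-Q7 over H2-Q6 stayed positive, at 0.80 in both forms of the reads table and with M4 counts by length, 0.78 in CPM and 0.26 over protein-coding transcripts. The mean of B2m over the summed heavy chains stayed negative, at -0.52 in both forms of the reads table, -1.12 with M4 counts by length and -1.74 in CPM. Over protein-coding transcripts the mean was -0.27, but B2m was the higher in library 4. Neighbouring pairs apart beyond their spread numbered 7 in both forms of the reads table, against 4. At a 2-fold threshold 1 member, H2-Q7, was lower in M4, against 3. The limit of 75% of windows found in no other gene was set after seeing the data: 5 members were under it with 50-base windows, 6 with 31-base windows and 0 with 100-base windows. The causes were not tested, apart from what each alternative changes by construction. Leaving out each library in turn gave 4 to 5 pairs apart, 7 to 10 members differing between libraries and 2 to 3 members lower in M4; with DESeq2 size factors, no count filter, est_counts or M4 counts, 10 members differed. The leading transcript changed for H2-Q7 and Nlrc5 by expected counts, and for H2-K1, to H2-K1-215, without library 1. No paired analysis was possible because there is 1 group. Limits are the single biosample, its H2 haplotype, which is not given, the 4 technical libraries, RNA of other cell types, and reads shared with paralogues and other genes.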

Other observations

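Class I-like genes and receptors of class I were also read from the M21 gene table. Cd1d1, which presents lipids to natural killer T cells, had 118, 114, 134 and 115 TPM in libraries 1 to 4, close to H2-M3. Mr1, which presents vitamin B metabolites to mucosal-associated invariant T cells, had 20.4, 18.0, 17.8 and 17.0 TPM. Cd1d2 averaged 2.43 ± 0.80 TPM and Fcgrt, the neonatal Fc receptor, 1.72 ± 0.50 TPM (SD, n = 4). H2-M1, H2-M5, H2-M9, H2-M10.1, H2-M11 and Azgp1 were listed at 0 in all 4 libraries. Of the 24 class I and class I-like genes matched in this list, 10 had at least 1 TPM in every library.

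Of 7 genes listed as receptors of class I, 2 had at least 1 TPM in every library. Lilrb4a, an inhibitory receptor of the same family as Pirb, was the highest with 67.9, 47.1, 80.0 and 58.4 TPM in libraries 1 to 4. Its place in the list rests on that family and does not show that it binds class I. Cd8b1 averaged 11.7 ± 2.1 TPM and Cd8a 2.10 ± 1.64 TPM (SD, n = 4). Klrk1 had 2.99, 0.74, 0.31 and 1.57 TPM and the widest span of normalised counts among the 5 listed genes tested, 9.87-fold. That span rested on only 23, 8, 2 and 10 expected counts in libraries 1 to 4. Klrd1 and Klrc1 had too few counts to be tested. The lowest were Pirb with 0.84 ± 0.51 TPM and Klrc1 with 0.42 ± 0.31 TPM.

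H2-Q5 had TPM and counts that parted. Its TPM was 104 in library 2 and 223 in library 3, while its normalised expected counts stayed within 1.17-fold.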
